A study of Mus musculus with 4 samples.

Results

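The insulin-like growth factor (IGF) genes examined here were the ligands Igf1 and Igf2, the receptors Igf1r and Igf2r, and the binding protein genes Igfbp2, Igfbp3, Igfbp4, Igfbp5, Igfbp6 and Igfbp7, 10 genes of the 30406 that the 4 gene lists had in common. They were found by gene symbol, and each symbol matched 1 identifier that was the same in all 4 lists. The data were single-cell RNA-seq libraries of wild-type (WT) C57B6 mouse (B6/N in the study's methods) mammary rudiments and glands, 1 library for each of the embryonic days E13.5, E14.5 and E15.5 and for the day of birth (P0). Each library was made from the tissue of pooled female embryos or pups, so no stage had a replicate. Sorted EpCAM+ and EpCAM- cells entered the libraries after cells positive for CD45, CD31 or Ter119 had been excluded. P0 glands were digested with other enzyme amounts than the embryonic rudiments and went through a red cell lysis step, so age, digestion and library cannot be told apart between stages.

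IGF1 and IGF2 are secreted growth factors that signal through the receptor tyrosine kinase encoded by Igf1r, whereas the receptor encoded by Igf2r carries IGF2 to the lysosome and lowers its amount. The IGF binding proteins hold the ligands outside the cell, lengthen their life and either block or deliver them, depending on the protein and on the proteases that cut it. In the mammary gland, stromal IGF1 and epithelial IGF1R are best known for their part in ductal growth at puberty, and in the embryo Igf2 and H19 are neighbouring imprinted genes with high expression in mesoderm.

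Cells with at least 5000 unique molecular identifiers (UMIs, counts of distinct transcripts) and at most 6% mitochondrial UMIs were kept, 1630 of 5896 barcodes. A cell was called epithelial or mesenchymal by the larger of its summed epithelial (Epcam, Krt8, Krt18, Krt5, Krt14) and collagen (Col1a1, Col1a2, Col3a1) UMIs, which gave 905 epithelial cells, 722 mesenchymal cells and 3 ties. Epithelial and mesenchymal cells numbered 98 and 135 in the E13.5 library, 45 and 31 in that of E14.5, 532 and 283 in that of E15.5, and 230 and 273 in the P0 library. The 8 pools of stage and tissue held between 838030 UMIs (E14.5 mesenchyme) and 14293755 UMIs (E15.5 epithelium), and the median cell had between 8743 and 26725 UMIs, with P0 the shallowest. No barcode was shared between the kept cells of different libraries. Levels are UMIs of a gene divided by all UMIs of the pool and scaled to CPM, with exact 95% Poisson intervals. These intervals cover counting error only, and not the difference between animals or the spread between cells.

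The labelled tissues carried their markers. In E13.5 mesenchyme, 19 of the 135 cells had under 20 UMIs in the marker sum that decided their label. The 7 epithelial genes kept for checking had a summed level of 1125 to 2073 CPM in epithelium and 9.55 to 72.2 CPM in mesenchyme, and the 7 mesenchymal check genes had 1886 to 7653 CPM in mesenchyme and 29.5 to 91.1 CPM in epithelium. Endothelial and immune genes had at most 35.1 CPM in a pool. The skin genes Krt1, Krt10, Lor and Krtdap together had 1168 CPM in E15.5 epithelium and 442 CPM in E14.5 epithelium. They had 104 CPM at E13.5 and 16.1 CPM at P0. Krtdap alone gave 852 CPM at E15.5 and 221 CPM at E14.5. Krt1 and Krt10 were also highest at E15.5, at 113 and 194 CPM, and Lor was highest at E13.5, at 14.7 CPM. The study names Krtdap as a gene of its luminal-like mammary cells. It also removed contaminating skin cells, a step not taken here. The skin gene sum therefore does not give the share of epidermal cells in these pools. Bud gene cells, with 10 or more UMIs of mammary bud genes named below, were 22 of 98 epithelial cells at E13.5. They were 28 of 45 at E14.5 and 71 of 532 at E15.5. In the study Ndnf and Pthlh mark basal-like cells at E15.5, so the bud rule can miss other mammary cells there. With the same UMI and mitochondrial limits, the study counted 22 mammary epithelial cells at E13.5 and 28 at E14.5. These are as many as the bud gene cells here, and whether they were the same cells was not checked. By the study's counts, mammary cells were the smaller part of the E13.5 epithelial pool and the larger part of the other epithelial pools. The skin genes do not rank the pools by this share, and at E15.5 the bud gene cells do not give it. The part of skin cells in the epithelial values was not tested. In P0 mesenchyme, 4 cells carried at least 20 haemoglobin UMIs. The haemoglobin genes Hba-a1 and Hbb-bs together had 6566 CPM in that pool, beside 9.94 CPM in P0 epithelium.

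Between the tissues, the IGF genes that passed the test were higher in mesenchyme. In an edgeR quasi-likelihood test across all genes with the library as a block, 4 of the 10 genes were called higher in mesenchyme (Benjamini-Hochberg adjusted p under 0.05 over 10364 genes tested) and 0 higher in epithelium, where 11% of all genes tested were called higher in mesenchyme and 10.3% higher in epithelium. Without adjustment, 8 of the 10 had a p under 0.05, as had 3776 of the 10364 genes tested. The 4 called genes were Igf1 (log2 difference 6.36, adjusted p = 0.00523 by edgeR), Igf2r (1.27, adjusted p = 0.0153), Igfbp4 (2.19, adjusted p = 0.0293) and Igfbp7 (3.25, adjusted p = 0.0183). Igf2 (3.41, adjusted p = 0.0633), Igfbp5 (0.90, adjusted p = 0.0536), Igfbp6 (4.64, adjusted p = 0.0553) and Igfbp3 (1.54, adjusted p = 0.0959) fell short of the threshold. The fit of Igf2 included its reduced E15.5 counts, which are described below. Igf1r (0.10, adjusted p = 0.854) and Igfbp2 (-0.78, adjusted p = 0.587) had no common direction over the stages. The median log2 difference was 1.86 over the 10 genes and -0.06 over all genes tested. Over 13 settings the adjusted p ran from 6.13e-19 to 0.0303 for Igf1, from 0.00033 to 0.0722 for Igf2r, from 6.02e-05 to 0.106 for Igfbp4 and, over the 10 settings in which it was tested, from 0.000195 to 0.297 for Igfbp7, all by edgeR or DESeq2. The call set was thin: with the E13.5 library left out only Igf1 was called, whereas DESeq2 called 8 of the 10, all higher in mesenchyme.

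**Figure D1:**
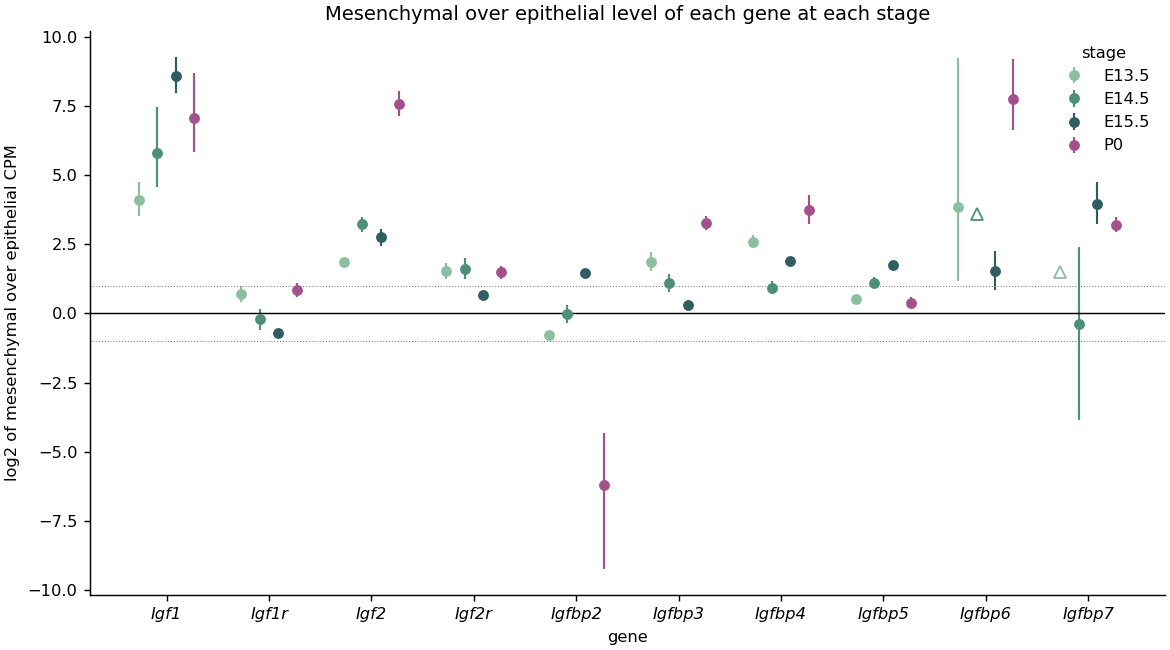
Log2 ratio of mesenchymal over epithelial CPM (y axis) for each gene (x axis) at each stage (colour), with exact 95% intervals for counting error. Open triangles are lower bounds where epithelium held 0 UMIs, computed with 3 UMIs in their place, and dotted lines mark a 2-fold difference. Igf1 lay above 4 at all 4 stages, and Igfbp2 went from -0.77 at E13.5 to 1.47 at E15.5 and -6.19 at P0. The Igf2 point at E15.5 rests on the reduced counts of that library.

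Stage by stage, a gene was counted when its level was at least 2-fold apart between the tissues and at least 10 CPM in one of them. With 1 library a stage these ratios have no test. At E13.5, 5 IGF genes were higher in mesenchyme and 0 lower, against 21.1% of all genes counted that were higher and 10.4% that were lower. At E14.5 the counts were 6 and 0, against 20.5% and 15.4% of all genes, with 4 and 0 under TMM factors or with cells of up to 10% mitochondrial UMIs, where Igfbp3 and Igfbp5 were no longer 2-fold apart. At E15.5 they were 6 and 0, against 19.7% and 14.9%. Of these 6, 1 was Igf2, whose counts in that library were reduced by an overlapping gene model described below. At P0, 7 were higher in mesenchyme and 1 lower (Igfbp2), against 19.2% and 25.1% of all genes, and TMM factors added Igf1r as higher. The median log2 ratio of the IGF genes counted was 1.69, 1.11, 1.76 and 3.24 from E13.5 to P0, beside 0.16, 0.00, 0.07 and -0.33 for all genes counted. These splits depended on scaling: of all genes at least 2-fold apart, 66.9% were higher in mesenchyme at E13.5 and 43.4% at P0, and with TMM factors the shares were 52.7% and 55.8%.

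Igf1 was a mesenchymal transcript at every stage. Its level in mesenchyme was 210.1 CPM (interval 192 to 229) at E13.5, 222 CPM (191 to 256) at E14.5, 565 CPM (548 to 582) at E15.5 and 259 CPM (239 to 279.5) at P0. The E15.5 pool stood above the other mesenchymal pools, which did not differ from their neighbours in rank beyond counting error. Between the ends of that order, P0 was 1.23-fold above E13.5 (1.09 to 1.39). In epithelium Igf1 had 12.2 CPM (25 UMIs) at E13.5, 3.93 CPM (5 UMIs) at E14.5, 1.47 CPM (21 UMIs) at E15.5 and 1.91 CPM (5 UMIs) at P0. Mesenchyme therefore held 17.2-fold more at E13.5 (11.5 to 26.8), 56.5-fold more at E14.5 (23.8 to 176), 384-fold more at E15.5 (251 to 622) and 135-fold more at P0 (57.7 to 418). At E13.5 the epithelial level of Igf1 was 5.83% of the mesenchymal level, and that of the mesenchymal check genes was 3.90%. At P0 the epithelial level of Igf1 was 0.739% of the mesenchymal level, and that of the mesenchymal check genes was 0.385%. The check genes were uneven at E13.5. Dcn and Col5a1 stood at 9.03% and 15.9% of their mesenchymal levels, and Pdgfra, Pdgfrb, Twist2, Prrx1 and Lum at 0% to 0.506%. Their sum is thus not a measure of stray mesenchymal transcripts alone. Free RNA in the droplets was not measured here, and its part in epithelial Igf1 was not tested.

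Of the 10 genes, Igf2 had the most UMIs in mesenchyme in each library except E15.5. Its mesenchymal level was 1050.5 CPM (1009.9 to 1092) at E13.5, 979.7 CPM (914 to 1049) at E14.5 and 3055 CPM (2987 to 3125) at P0, when 98.2% of mesenchymal cells had a UMI of it. In epithelium it moved the other way, from 290.5 CPM (268 to 315) at E13.5 to 104 CPM (87.5 to 124) at E14.5 and 16.1 CPM (11.6 to 21.7) at P0. The mesenchymal excess over the whole epithelial pool thus went from 3.62-fold (3.31 to 3.96) at E13.5 to 9.38-fold (7.8 to 11.4) at E14.5 and 190.2-fold (141 to 264) at P0. In bud gene cells alone, Igf2 was 95.6 CPM at E13.5 and 79.4 CPM at E14.5. The part of the cell mix in the step between these stages was not tested. At E13.5 the epithelial level was 27.6% of the mesenchymal one, where the mesenchymal check genes reached 3.90%. At P0 it was 0.526%, beside 0.385% for the check genes, and rested on 42 UMIs.

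The E15.5 level of Igf2 is not comparable with the other stages. The gene list of that library, counted with another Cell Ranger version, alone holds a second gene model, Gm49394, which lies over Igf2 on the same strand (GRCm38 chr7:142650766-142666816, minus strand, for Igf2) and covers 62.8% of its exon bases and 99.7% of the last 1000 of them. Reads that fall on both models are not counted for either, and Gm49394 itself had 0 UMIs. The counts left for Igf2 were 55.4 CPM in mesenchyme and 8.19 CPM in epithelium, and the ratio within that library was 6.76 (5.49 to 8.38). No other gene of the 10 shared exon bases on its own strand with a listed gene. H19, the untranslated RNA 72622 bases away, whose counts are not touched by that model, had 1645 CPM, 1299 CPM, 875 CPM and 3989 CPM in mesenchyme from the first stage to the last, and 1459, 452, 334 and 275 CPM in epithelium. Its tissue difference was not called (log2 1.61, adjusted p = 0.138 by edgeR).

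**Figure D2:**
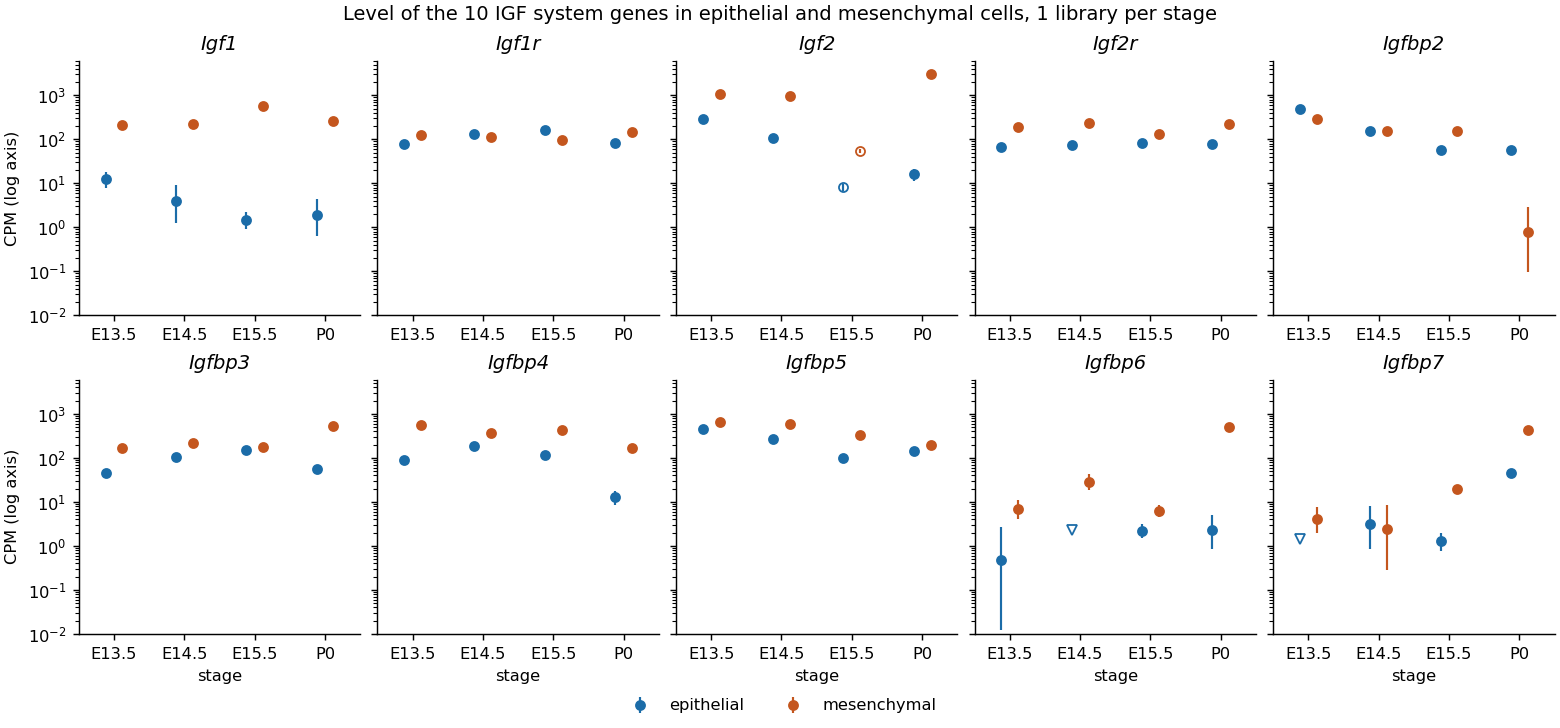
Level of each of the 10 genes in CPM on a log axis (y) by stage (x) in epithelial (blue) and mesenchymal (orange) cells, 1 library per stage, with exact 95% Poisson intervals. Open circles mark Igf2 at E15.5, which is not comparable with the other stages, and open triangles stand at 3 UMIs for pools with 0 UMIs. Igfbp6 and Igfbp7 in mesenchyme are at 499 and 419.5 CPM at P0, and Igfbp2 is at 0.798 CPM.

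The receptor transcripts varied far less than the ligands. Igf1r, the signalling receptor, ranged only from 78.9 CPM in E13.5 epithelium to 163 CPM in E15.5 epithelium. It was 1.63-fold higher in mesenchyme at E13.5 (1.34 to 1.98) and 1.79-fold higher at P0 (1.51 to 2.12), did not differ at E14.5 beyond counting error (0.862, 0.661 to 1.12), and was 1.65-fold higher in epithelium at E15.5 (1.52 to 1.8). The E13.5 bud gene cells alone had 114 CPM of Igf1r, beside 128 CPM in E13.5 mesenchyme. In rank order over the 8 pools, only the step from E15.5 mesenchyme (99.0 CPM) to P0 epithelium (83.8 CPM) exceeded counting error between neighbours. Igf2r, the clearance receptor, was higher in mesenchyme at every stage, with 188, 229, 130.4 and 224 CPM from E13.5 to P0 against 65.6, 74.6, 82.9 and 79.6 CPM in epithelium. Its mesenchymal excess was 2.87-fold (2.36 to 3.5), 3.07-fold (2.39 to 3.97), 1.57-fold (1.44 to 1.72) and 2.81-fold (2.39 to 3.31). The 4 epithelial pools did not differ from their neighbours in rank. Insr, the insulin receptor that can pair with IGF1R, was lower than both, at 17.6 to 33.1 CPM over the 8 pools, and its tissue difference was not called (log2 0.18, adjusted p = 0.641 by edgeR). UMI counts from transcript ends carry no length term, but capture differs between genes, so levels of different genes are given side by side only as counts.

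Igfbp2, whose protein binds IGF2 with preference, was the binding protein gene whose tissue pattern turned over. Its epithelial level was 498 CPM (468 to 529.7) at E13.5, 157 CPM (136 to 180.4) at E14.5, 56.9 CPM (53.1 to 61.0) at E15.5 and 58.1 CPM (49.3 to 68.2) at P0. In mesenchyme it was 291 CPM (270.3 to 314), 156 CPM (131 to 185) and 158 CPM (149 to 167) at the embryonic stages and 0.798 CPM at P0, where 2 UMIs were found in 273 cells. It was 1.71-fold higher in epithelium at E13.5 (1.55 to 1.88), level at E14.5 (0.995, 0.792 to 1.25), 2.77-fold higher in mesenchyme at E15.5 (2.53 to 3.04) and 72.9-fold higher in epithelium at P0 (19.8 to 607). The E13.5 bud gene cells alone had 315 CPM of Igfbp2, beside 291 CPM in E13.5 mesenchyme. The P0 mesenchymal level was 1.37% of the epithelial one, below the 3.48% that the epithelial check genes reached there.

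Igfbp5 lies 5457 bases from Igfbp2 on chromosome 1, tail to tail, and did not share its P0 pattern. Igfbp5 was lower at P0 than at E13.5 in both tissues, 191 against 646 CPM in mesenchyme and 146 against 449 CPM in epithelium, with 588 and 335 CPM in mesenchyme and 273 and 98.8 CPM in epithelium at E14.5 and E15.5. It was higher in mesenchyme at each stage, by 1.44-fold (1.33 to 1.56), 2.16-fold (1.88 to 2.48), 3.39-fold (3.18 to 3.63) and 1.31-fold (1.14 to 1.5). The P0 difference did not keep its direction when each cell had equal weight (log2 ratio -0.10). At P0 Igfbp5 was carried by few mesenchymal cells: 16.8% of them had a UMI, and the tenth of cells with the most UMIs held 94.0% of its transcripts, against 27.0% for Igf2 and 44.3% for Igfbp3.

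Igfbp4, an inhibitory binding protein that the protease PAPPA cuts, was higher in mesenchyme at all 4 stages. Its mesenchymal level was 552 CPM (523 to 582) at E13.5, 364 and 427 CPM at the next stages and 168 CPM (152 to 185) at P0, and its epithelial level was 91.6, 190.1 and 115 CPM in the embryo and 12.6 CPM (8.69 to 17.7) at P0. The mesenchymal excess was 6.02-fold (5.17 to 7.06), 1.91-fold (1.61 to 2.28), 3.71-fold (3.49 to 3.94) and 13.3-fold (9.32 to 19.6). The E13.5 bud gene cells alone had 268 CPM of Igfbp4. Igfbp3, the main carrier of IGF in serum, had 165 CPM (149 to 182) in mesenchyme at E13.5, then 218 and 181 CPM, and 530.4 CPM (502 to 559.6) at P0. Its epithelial level was highest at E15.5, with 45.1, 102.1, 148 and 55.1 CPM from E13.5 to P0. The mesenchymal excess of Igfbp3 was smallest at E15.5 (1.23-fold, 1.14 to 1.31) and largest at P0 (9.63-fold, 8.1 to 11.5). In P0 epithelium 93.1% of the Igfbp3 UMIs lay in the tenth of cells with the most of them.

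Igfbp6 and Igfbp7 were far lower in embryonic than in P0 mesenchyme. Igfbp6, whose protein binds IGF2 far more tightly than IGF1, had 7.06 CPM (17 UMIs), 28.6 CPM (24 UMIs) and 6.34 CPM (46 UMIs) in mesenchyme in the embryonic libraries by age and 499 CPM (472 to 528) at P0, a 70.7-fold difference between E13.5 and P0 (44.0 to 122). Its epithelial level never passed 2.29 CPM, and at P0 this was 0.460% of the mesenchymal level, near the 0.385% of the mesenchymal check genes. Igfbp7, a low-affinity member of the family found in basement membranes and vessels, had 4.15 CPM (10 UMIs), 2.39 CPM (2 UMIs) and 19.6 CPM (142 UMIs) in embryonic mesenchyme and 419.5 CPM (395 to 446) at P0, 101-fold above E13.5 (54.7 to 211). In epithelium it had 0 UMIs at E13.5 (3 UMIs would be 1.47 CPM, and the exact upper limit is 1.81 CPM) and 45.1 CPM (37.4 to 54.1) at P0. With 3 UMIs in place of 0 it was at least 30.7-fold higher at P0, and the counting interval of that value starts at 24.6. That P0 epithelial level was 10.8% of the mesenchymal one, above the check genes. Endothelial genes, whose cells are known for Igfbp7, had a summed level of 35.1 CPM in P0 mesenchyme and 1.53 CPM in P0 epithelium. Pecam1 alone gave 33.9 CPM of the P0 mesenchymal sum. Cdh5 had no UMIs in that pool, and Kdr was lower there than its 10.2 CPM in E15.5 mesenchyme. A UMI of Igfbp7 was found in 191 of the 273 P0 mesenchymal cells. The part of endothelial cells in the Igfbp7 values was not tested.

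The start regions of the 3 genes with the largest mesenchymal change between E13.5 and P0 are shown from RefSeq (GRCm38.p6), 150 bases before the first listed start, to set Igfbp2, lower at P0, beside Igfbp6 and Igfbp7, both higher at P0. All 10 genes were in the promoter table. Capitals mark GGGCGG or its complement CCGCCC (the GC box core) and TATAAA or its complement TTTATA. The windows are chr1:72824330-72824479 (plus strand) for Igfbp2, chr15:102144036-102144185 (plus strand) for Igfbp6 and chr5:77408046-77408195 (minus strand) for Igfbp7, each written 5′ to 3′ on the gene's strand.
Igfbp2: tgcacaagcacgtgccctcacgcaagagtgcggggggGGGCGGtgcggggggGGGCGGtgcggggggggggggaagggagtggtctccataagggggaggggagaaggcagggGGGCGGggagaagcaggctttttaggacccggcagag
Igfbp6: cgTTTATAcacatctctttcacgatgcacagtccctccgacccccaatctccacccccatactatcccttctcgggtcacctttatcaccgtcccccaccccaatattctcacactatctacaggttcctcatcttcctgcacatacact
Igfbp7: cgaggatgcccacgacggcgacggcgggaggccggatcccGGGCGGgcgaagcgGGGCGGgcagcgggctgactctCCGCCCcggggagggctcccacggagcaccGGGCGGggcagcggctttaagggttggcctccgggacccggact
The Igfbp2 window held 3 matches to GGGCGG and had 72% G and C, the Igfbp7 window 4 matches and 78%, and the Igfbp6 window no such match, 1 match to TATAAA and 50.7%. Of all 32851 windows of this length, 28.6% held GGGCGG and 7.57% held TATAAA on either strand. The windows of Igfbp6 and Igfbp7, both higher at P0, were thus unlike in both letters searched. By GENCODE Igfbp6 starts at chr15:102144362, farther from its window than Igfbp2 (chr1:72824503) and Igfbp7 (chr5:77408041) are from theirs. The part of that listed start in the unlike letters was not tested. A match is a description of the letters and not a binding site.

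Summed over the 6 binding protein genes, mesenchyme had 1666, 1358, 1128 and 1809 CPM from E13.5 to P0, and epithelium 1084, 725, 422 and 319 CPM. These sums depend on the CPM scale, which TMM factors would shift in favour of P0 mesenchyme, whereas the shares within a pool do not. The genes that led the mesenchymal sum differed between E13.5 and P0. In E13.5 mesenchyme Igfbp5 gave 38.8% of the Igfbp UMIs, Igfbp4 33.1% and Igfbp2 17.5%. In P0 mesenchyme Igfbp3 gave 29.3%, Igfbp6 27.6% and Igfbp7 23.2%, with 10.6% from Igfbp5, 9.28% from Igfbp4 and 0.0441% from Igfbp2. In the whole epithelial pools Igfbp2 (45.9%) and Igfbp5 (41.4%) led at E13.5, Igfbp3 (35%) at E15.5 and Igfbp5 (45.7%) at P0. In the 22 bud gene cells of E13.5 alone, Igfbp2 had 135 UMIs, Igfbp5 125 and Igfbp4 115, so Igfbp4 was close to both there. The ligand sum in mesenchyme was 1261 CPM at E13.5 and 3314 CPM at P0, so it was below the Igfbp sum at the first stage and above it at the last.

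**Figure D3:**
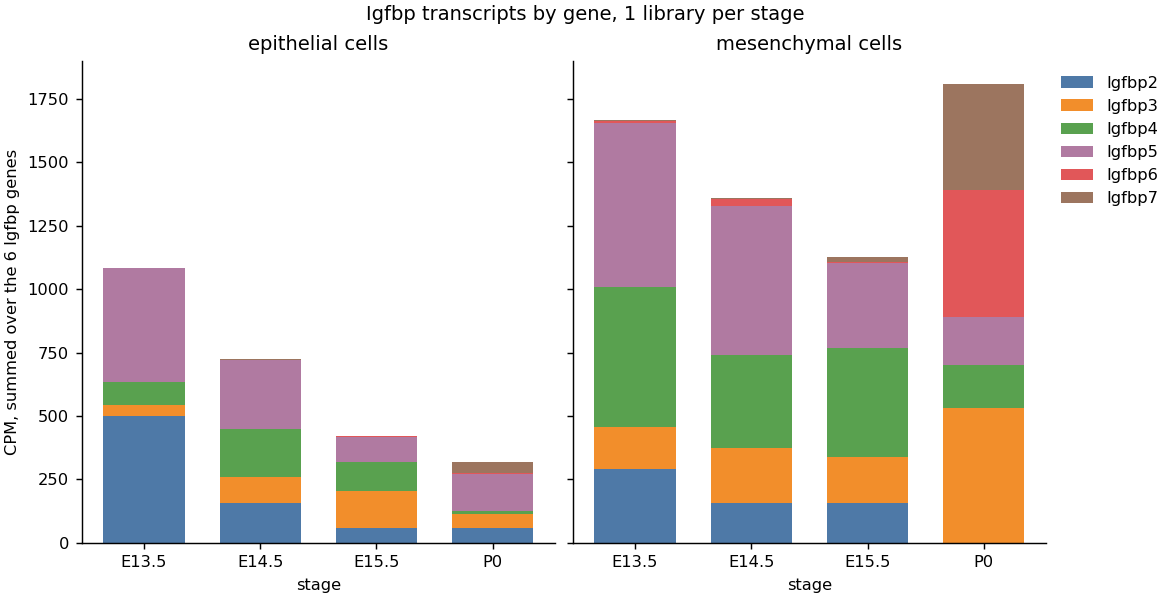
Summed level of the 6 Igfbp genes in CPM (bar height, from 0) by stage in epithelial (left) and mesenchymal (right) cells, coloured by gene, 1 library per stage. Igfbp3, Igfbp6 and Igfbp7 make up most of the P0 mesenchymal bar of 1809 CPM, in which Igfbp2 is too small to see.

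Between E13.5 and P0, 4 IGF genes were at least 2-fold higher at P0 in mesenchyme (Igf2, Igfbp3, Igfbp6, Igfbp7) and 3 were lower (Igfbp2, Igfbp4, Igfbp5), against 14.48% of all genes counted that were higher and 36.2% that were lower. Of all genes at least 2-fold apart there, 28.6% were higher at P0, and 60.4% with TMM factors, under which the same 7 genes kept their calls. That scaling moved the median log2 ratio of all genes from -0.61 to 0.14. Relative to the median of all genes, Igf1, Igf1r and Igf2r in mesenchyme, whose CPM ratios were 1.23, 1.17 and 1.19, were thus higher at P0, with log2 ratios of 0.97, 0.89 and 0.92 under TMM factors. With cells under 20 marker UMIs or with at least 20 haemoglobin UMIs left out, the same 7 calls held in mesenchyme. The log2 ratio of Igfbp3 was then 1.93 in place of 1.69. In epithelium, Igfbp7 was higher at P0 and 5 genes were lower (Igf1, Igf2, Igfbp2, Igfbp4 and Igfbp5), against 17.5% and 20.8% of all genes. The folds by which P0 was lower were 18.1 for Igf2 (13.2 to 25.4), 8.57 for Igfbp2 (7.22 to 10.2), 7.26 for Igfbp4 (4.99 to 10.9), 6.4 for Igf1 (2.41 to 21.4) and 3.07 for Igfbp5 (2.73 to 3.47). The Igf1 value rests on 25 UMIs at E13.5 and 5 at P0, and the part of stray mesenchymal transcripts in it was not tested. Igf1r (1.06), Igf2r (1.21) and Igfbp3 (1.22) did not differ in epithelium beyond counting error when all epithelial cells of E13.5 were pooled.

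The E13.5 epithelial pool mixed cells with more and with fewer transcripts of mammary bud genes, and several IGF genes differed between them. With 10 or more UMIs of Ndnf, Pthlh, Msx1, Tbx3 and Sostdc1 together, a split chosen after the values were seen, 22 of 98 cells counted as bud gene cells, and 15 cells lay between 5 and 19 UMIs. Igf2 was 95.6 CPM in the bud gene cells and 342 CPM in the others, Igfbp2 315 and 547 CPM, and Igfbp5 291 and 491 CPM. Igfbp4 was 6-fold higher in the bud gene cells (4.43 to 8.18), 268 against 44.6 CPM, and Igfbp3 was 2.89-fold higher (1.87 to 4.45). At E14.5, 28 of 45 cells counted, with Igf2 at 79.4 against 148 CPM and Igfbp4 at 231 against 120 CPM, the same directions as at E13.5. Igfbp5, at 320.2 against 190.4 CPM, and Igfbp3, at 85.6 against 130.5 CPM, had the other direction there than at E13.5. Against the bud gene cells of E13.5 alone, the log2 change to P0 was -2.57 for Igf2 in place of -4.18, -2.44 for Igfbp2 in place of -3.10, and -4.41 for Igfbp4 in place of -2.86. Igfbp5 then lay just inside 2-fold, in place of -1.62. The values of Igf1r (-0.45 in place of 0.09), Igf2r (-0.23 in place of 0.28) and Igfbp3 (-0.76 in place of 0.29) turned from above to below 0.

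At equal depth of 5000 UMIs per cell, Igf2 was found in 94.8% of mesenchymal cells at E13.5 (interval 89.6 to 97.9), 83.9% at E14.5 and 97.8% at P0 (95.3 to 99.2). In epithelium its share was 56.1%, 26.7% and 10.4% at these stages, and 84.7%, 86.7% and 14.8% before thinning. Igf1 was found in 43.0%, 38.7%, 72.1% and 45.4% of mesenchymal cells from E13.5 to P0, and in at most 9.18% of epithelial cells. At P0, 124 mesenchymal cells had Igf1 and 123 of these also had Igf2. Igf1r was found in 33.5% to 49.4% of cells in the 8 pools, and Igf2r in 26.5% to 59.3%. The share with Igfbp6 in mesenchyme was 2.96%, 9.68% and 2.83% in the embryo and 62.3% at P0, and that with Igfbp7 was 0%, 3.23%, 8.83% and 60.8%. The 0 of 135 cells at E13.5 holds for the thinned depth, with an exact upper limit of 2.7%, and before thinning 5.19% of these cells had a UMI of Igfbp7. At least 2 Igfbp genes were found together in 83.5% of P0 mesenchymal cells and in 20% of P0 epithelial cells.

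**Figure D4:**
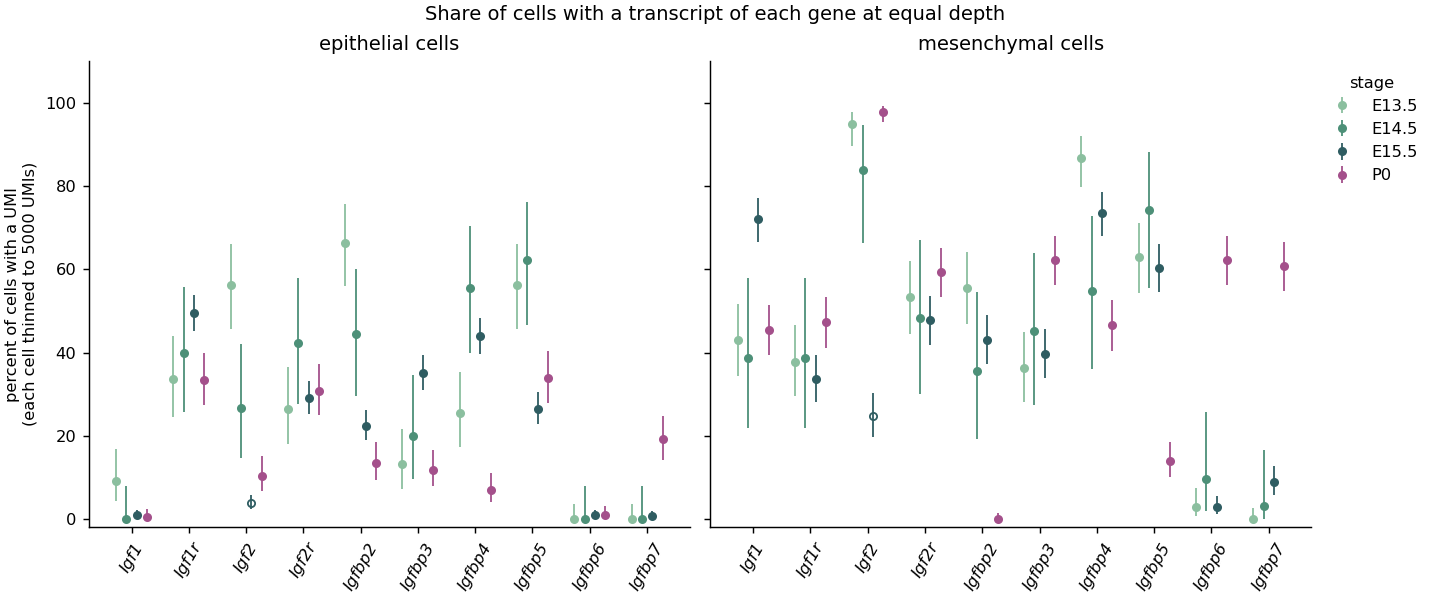
Percent of cells with a UMI of each gene after every cell was thinned to 5000 UMIs (y axis), by gene (x axis) and stage (colour), in epithelial (left) and mesenchymal (right) cells, with exact 95% binomial intervals. Open circles mark Igf2 at E15.5. Igfbp6 and Igfbp7 are at 62.3% and 60.8% in P0 mesenchyme and under 10% in embryonic mesenchyme.

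Mesenchymal cells of 1 stage were not alike. Cells were ordered by the marker set with the highest standardised level, so each group is a range of a score and not a cell type, and with 1 library these differences have no test. At P0, 97 cells were nearest the set Pi16, Dpp4, Sema3c and Wnt2, which is known from fibroblast progenitors, 99 nearest Col15a1, Fabp4, Pparg and Aoc3, known from fat-forming and perivascular stroma, and 77 nearest Eln, Mfap4 and Mgp, genes of elastic matrix. Of these, 21, 25 and 28 cells lay within 0.5 standard deviations of another set. Igfbp5 was almost restricted to the Pi16 set: it had 460.1 CPM there, with 466 UMIs in 38 of the 97 cells, against 9.55 CPM (8 UMIs) in the Col15a1 set and 9.13 CPM (6 UMIs) in the Eln set. Igfbp7 was lowest in the Pi16 set, at 86.9 CPM against 776 CPM in the Col15a1 set and 478 CPM in the Eln set. Igf1 was 87.9, 208 and 588 CPM in the same order, 6.69-fold higher in the Eln set than in the Pi16 set (5.3 to 8.52). Igfbp6 was 805, 183 and 432 CPM and Igfbp3 was 699, 310.3 and 551 CPM. Igf2 stayed between 2307 and 3688 CPM in all 3.

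In counts of genes at least 2-fold apart, 3 IGF genes were higher and 2 lower in the Pi16 set than in the Col15a1 set, against 10.3% and 9.63% of all genes. From the Pi16 to the Eln set the counts were 1 and 2, against 8.48% and 9.11%, and from the Col15a1 to the Eln set 0 and 2, against 7.73% and 9.46%. In the embryo, mesenchymal cells nearest Esr1, Lef1, Crabp1 and Vcan, genes of the mesenchyme around the bud, were set against cells nearest Plagl1 and Cdkn1c. At E13.5 (63 and 72 cells) 0 of 8 IGF genes counted were 2-fold apart, against 5.24% of all genes higher and 4.59% lower. Beyond counting error, Igf2r (135 against 230.1 CPM), Igf2 (795 against 1251 CPM), Igf1 (183 against 232 CPM), Igf1r (110 against 142.5 CPM) and Igfbp4 (490 against 600 CPM) were lower. Igfbp2 (380 against 222 CPM) and Igfbp5 (788 against 535 CPM) were higher. Counting error leaves out the spread between cells, and 1 E13.5 mesenchymal cell held 131 of the 1557 Igfbp5 UMIs. With cells within 0.5 standard deviations of the other set left out, Igfbp2 was 2.43-fold higher and passed 2-fold. At E15.5 (179 and 104 cells) Igf2 and Igfbp6 were lower, 2 of 10, against 6.33% of all genes higher and 6.49% lower. The Igf2 values, 32.4 against 105 CPM, rest on the reduced counts of that library. Igfbp6 had 0 UMIs against 46 there, at least 33.2-fold lower with 3 UMIs in place of 0 (counting interval from 25.9). Igf2r was 99.3 against 198 CPM, just inside 2-fold. It passed 2-fold with cells near the other set left out (2.18-fold lower). The same held when the epithelial and collagen sums had to be 10 times apart (2.10-fold lower). Plagl1 and Cdkn1c are, like Igf2, imprinted genes.

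**Figure D5:**
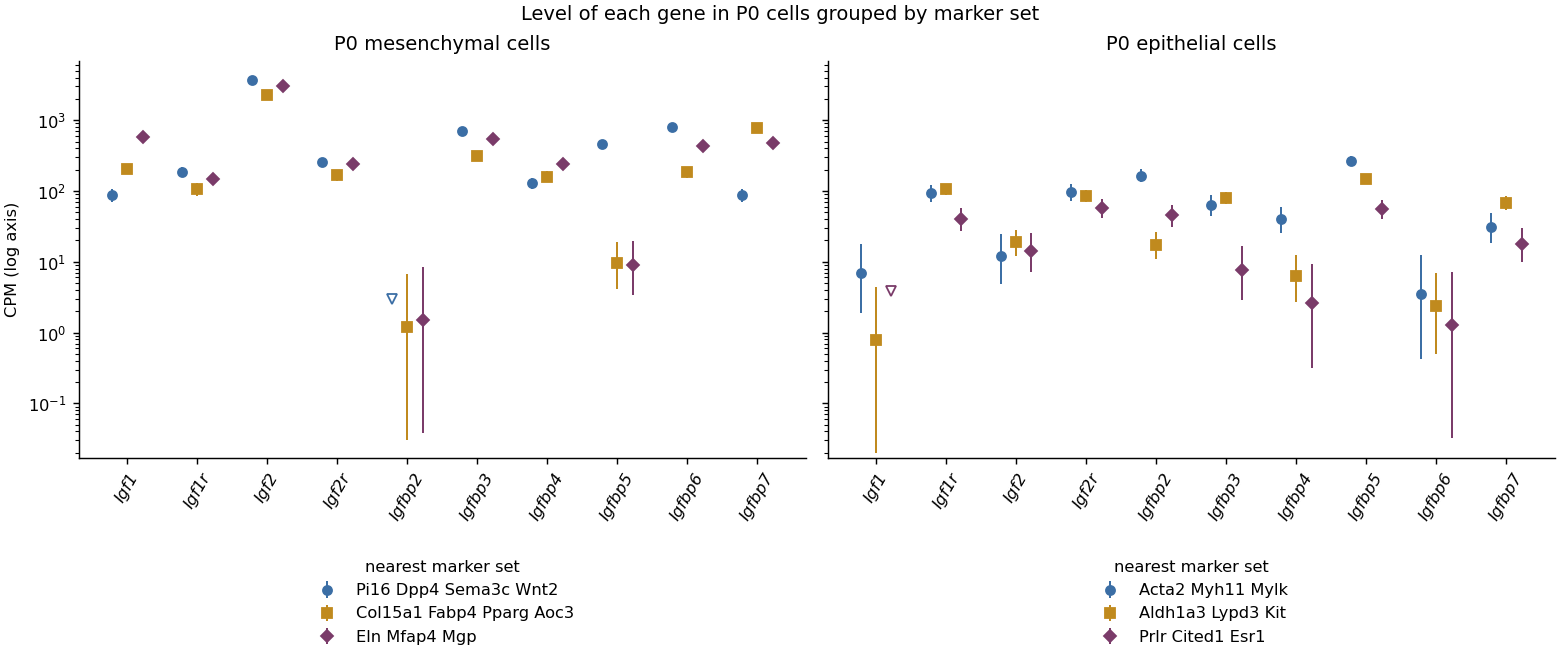
Level of each gene in CPM on a log axis (y) in P0 mesenchymal (left) and P0 epithelial (right) cells grouped by the nearest marker set (colour and shape), with exact 95% Poisson intervals. Open triangles stand at 3 UMIs where a group had 0 UMIs. Igfbp5 in the Pi16 set of mesenchyme (460.1 CPM) stands apart from the other sets at under 10 CPM.

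Epithelial cells differed as well. At E15.5, cells nearest Cxcl14, Pthlh, Ndnf and Lmo1, had 3.21-fold more Igfbp5 (2.83 to 3.65) and 2.09-fold more Igfbp2 (1.8 to 2.43) than cells nearest Anxa1, Ly6d, Lgals3 and Plet1, and 1.36-fold more Igf1r (1.25 to 1.48). With 291 and 241 cells, of which 64 and 55 lay near the border, 2 of 6 IGF genes counted were higher and 0 lower, against 2.69% and 2.44% of all genes. The bud gene split used the same cells and shares Pthlh and Ndnf with the Cxcl14 set, so these groupings are not independent. In the 71 bud gene cells of E15.5 against the other 461, Igfbp5 (235 against 75.6 CPM) and Igfbp2 (74.8 against 53.9 CPM) had the same direction. Igf1r had the other direction there, at 144 against 167 CPM (ratio 0.865, 0.764 to 0.977). The part of skin cells in these differences was not tested. At P0, 57 cells were nearest Acta2, Myh11 and Mylk (genes of contractile basal cells), 121 nearest Aldh1a3, Lypd3 and Kit (luminal progenitor genes) and 52 nearest Prlr, Cited1 and Esr1 (mature luminal genes), with 34, 30 and 10 cells near the border. The median cell of the Acta2 set had 0 CPM of its own 3 genes and 181 CPM of the Aldh1a3 genes, so that group was weakly marked and is not called basal. Igfbp2 was 165 CPM in the Acta2 set, 17.4 CPM in the Aldh1a3 set and 45.1 CPM in the Prlr set. Igfbp5 was 264, 148 and 55.4 CPM in the same order, and Igfbp4 was 39.9, 6.34 and 2.58 CPM. Igfbp7 was highest in the Aldh1a3 set, at 68.1 CPM against 31.2 and 18.0 CPM. Igf1r was lowest in the Prlr set, at 40.0 CPM against 93.7 and 106 CPM, and Igfbp3 too, at 7.73 CPM against 62.4 and 80.8 CPM.

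In counts, 2 IGF genes were higher and 1 lower in the Acta2 than in the Aldh1a3 set, against 7.59% and 9.28% of all genes. From the Acta2 to the Prlr set 5 were higher and 0 lower, against 11.4% and 17.2%, and from the Aldh1a3 to the Prlr set 4 were higher and 1 lower, against 9.92% and 12.7%.

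Of 46 other genes of the pathway, 36 could be tested between the tissues. By edgeR, 11 were called higher in mesenchyme and 5 higher in epithelium, against 11% and 10.3% of all genes tested, with a median log2 difference of 0.26. Among those called, the 3 largest mesenchymal differences were all of proteases that cut IGF binding proteins: Adam12 (log2 7.08, adjusted p = 0.000462), Pappa2 (5.42, adjusted p = 0.000965) and Pappa (4.79, adjusted p = 0.00692). The fitted value of Adam12 rests on 0, 0, 1 and 1 epithelial UMIs and depends on the prior count. Pappa in mesenchyme was 22.4, 33.4, 64.2 and 27.1 CPM from E13.5 to P0, highest at E15.5 as Igf1 was, and Pappa2 was 49.4, 121, 19.97 and 13.2 CPM. Adam12 had 11.6, 10.7, 10.5 and 55.0 CPM. Among those called, the 3 largest epithelial differences were of Pik3cb, a catalytic subunit of PI3-kinase (log2 -2.79, adjusted p = 0.0184), Gab1, a docking protein (-1.08, adjusted p = 0.0301), and Igf2bp1, an RNA-binding protein named for Igf2 mRNA (adjusted p = 0.0178). Igf2bp1 had 142, 217, 253 and 36.7 CPM in epithelium against 90.9, 89.5, 125 and 20.3 CPM in mesenchyme, and Pik3cb in epithelium was 11.3, 14.9, 29.0 and 86.4 CPM over the stages. Igfbp1, a liver binding protein, had 0 to 4 UMIs in each pool and was not tested.

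The genes whose pattern over the 8 pools was most like that of each IGF gene were found by the mean absolute difference of log2(CPM + 1), each gene centred on its own mean, among 10978 genes with at least 10 CPM in a pool. For the receptors they were Irs2 (0.16) and Diaph2 (0.17) for Igf1r, and Apaf1 (0.16) for Igf2r. Irs2 was also on the list of pathway genes. For the ligands they were Colec12 (0.42) and Bicc1 (0.54) for Igf1 and, over the 6 pools without E15.5, Rgs7bp (0.56) and the imprinted gene Zim1 (0.60) for Igf2. For the binding proteins they were the histone gene Hist1h2ae (0.51) and Pclaf (0.57), a gene of DNA replication, for Igfbp2, Dcbld2 (0.26) and Numbl (0.26) for Igfbp3, Rasl11b (0.25) and Zfp354c (0.28) for Igfbp4, Pola2 (0.18) and H1f0 (0.21) for Igfbp5, Htra3 (0.45) and Angptl2 (0.57) for Igfbp6, and Pcolce2 (0.72) and Ly6c1 (0.81) for Igfbp7. The pools of 1 stage share a library, so these likenesses are a description.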

How the data were processed

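Single-cell libraries (10x Genomics 3′ chemistry) were analysed from deposited count matrices of UMIs per gene and barcode, which the authors made with Cell Ranger and a pre-built mm10 reference. Per the file headers, the version was 3.1.0 for the E15.5 library and 6.0.0 for the other libraries. The authors give features and barcodes beside each matrix, and the matrices hold barcodes of 500 or more UMIs. Doublets were removed at the sort by the authors' account, and no doublet caller was run here. UMIs were summed per stage and tissue into 8 pools and tested with edgeR 4.0.16 (quasi-likelihood, library block, TMM, low-count filter, Benjamini-Hochberg) in R 4.3.3. Within each library the tissues are compared in the same animals, and p-values measure the spread of that difference over 4 stages and not over replicates. DESeq2 1.42.0 was an alternative. Ratios within 1 library have exact intervals (scipy 1.17.1) and no test. Code was tested on simulated data. Other alternatives were other cell filters, scalings, cell weights and tissue rules. The genes and lists were chosen with earlier results of these data known. Text names all 10 IGF genes, the 3 pathway genes with the largest called difference in each direction besides H19, Insr and Igfbp1, and the 2 genes of most similar pattern for each. One gene that this rule names is not reported here. A marker set's level in a cell was log2(1 + UMIs per 10000), standardised over the cells of its tissue and stage. Gene positions are from GENCODE M21 (GRCm38).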

Additional observations from a re-analysis of the deposited data

Results flagged for a closer look

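Igf1r and Igfbp2 stood out because their tissue difference lay in opposite directions at different stages, beyond the counting interval on either side. The log2 ratio of mesenchyme over epithelium for Igf1r was 0.70 at E13.5, -0.72 at E15.5 and 0.84 at P0. For Igfbp2 it was -0.77 at E13.5, 1.47 at E15.5 and -6.19 at P0. With 1 library per stage, the difference between stages was not tested. In the E13.5 bud gene cells alone, Igf1r was 114 CPM and Igfbp2 315 CPM, beside 128 and 291 CPM in E13.5 mesenchyme. Skin genes had 1168 CPM in E15.5 epithelium against 104 CPM at E13.5 and 16.1 CPM at P0. Krtdap, named above as a gene of luminal-like mammary cells too, gave 852 CPM of the E15.5 sum. The part of skin cells and of cells other than bud gene cells in these ratios was not tested.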

How the results depend on the processing

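The tissue test is paired within each library by its block. Between stages, no paired analysis was possible because each stage has 1 library of other animals. Igf1 was the only one of the 10 IGF genes called in all 13 fits of the tissue test (adjusted p 6.13e-19 to 0.0303). Against 4 in the reported fit, 8 IGF genes were called higher in mesenchyme with DESeq2, 7 without TMM factors and 8 without the low-count filter, and leaving out a library gave 1 to 5. Without the library block, 742 genes of all were higher in mesenchyme and 619 in epithelium, in place of 1140 and 1067, and leaving out a library gave 548 to 1500 and 335 to 1427. Of the other pathway genes, 7 and 2 were called without the block, 3 in epithelium with DESeq2 and 2 without TMM factors, and without a library the counts ran from 6 to 9 in mesenchyme and 0 to 7 in epithelium, in place of 11 and 5. TMM factors took the E14.5 count higher in mesenchyme from 6 to 4 and the P0 count from 7 to 8. They also made Igfbp2 at E13.5 1 gene lower in mesenchyme in place of 0. The mean of single cells gave 5 at E14.5. A 1 CPM minimum took the count higher in mesenchyme from 5 to 7 at E13.5 (Igfbp6 and Igfbp7 added) and from 6 to 7 at E15.5 (Igfbp6 added). It also added Igfbp6 to the genes higher in P0 than in E13.5 epithelium, 2 in place of 1. With E13.5 bud gene cells only, 4 genes were lower in P0 epithelium in place of 5. No call of the 10 genes changed direction. The causes were not tested. Depth limits Igfbp6, Igfbp7 and epithelial Igf1 in the embryo, where pools held as few as 0 to 5 UMIs, and the E14.5 pools, with 45 and 31 cells.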
